A study of Mus musculus with 38 samples.

Results

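Brown adipose tissue of C57BL/6J mice fed a high fat, high sucrose diet with 20 µg of the botanical formulation Kal-1 (group HF20) was compared with that of mice on the low fat control diet (group LFC). The comparison asks what still differs from the control diet when the high fat diet is given together with the middle dose of the formulation. Its members were chosen as all arrays of these 2 groups at Weeks 3, 6, 9, 12, 15 and 18, which gave 12 of the 38 arrays of the series, 6 in each group. LFC mice received 10% of calories from fat, and HF20 mice received 60% of calories from fat with added sucrose and Kal-1. All mice were weaned at 3 to 4 weeks of age before the diets began, and the sexes of the animals are not given in the sources used here. Values of 3 further groups on the high fat diet stand beside the comparison where they help to read it, namely HFC (diet alone, no Kal-1), HF5 (5 µg) and HF75 (75 µg), with 6 arrays each. There was 1 array per group and week, so the weeks serve as replicates and a p-value measures the spread between weeks. Nothing in the labels says whether an array held RNA of 1 animal or of a pool, although 5 animals per group were killed every 3 weeks. Kal-1 was given only on the high fat diet, so the diet and the formulation cannot be told apart in HF20 against LFC.

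Brown fat burns fatty acids in its mitochondria to make heat, through the uncoupling protein UCP1, and noradrenaline drives it through beta-3 adrenergic receptors and cyclic AMP. It also makes fatty acids and cholesterol itself, under the transcription factors SREBP-1 and SREBP-2, and it stores triglyceride in many small droplets. Feeding a high fat diet is known to lower the genes of fatty acid synthesis in adipose tissue, because dietary fat replaces newly made fat.

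All values are log2 signals relative to the 75th percentile of their own array, and a difference of 1 on this scale is a 2-fold difference. The 12 arrays fell into 2 classes by overall brightness. On 7 bright arrays (Weeks 3, 9 and 12 of LFC and Weeks 3, 6, 12 and 15 of HF20) the 75th percentile of the signal lay between 655 and 1023 intensity units, and 63.9% to 72.0% of probes were well above background. On the 5 dim arrays it lay between 43.2 and 197, with 46.0% to 60.5% of probes above background. The 2 arrays of a week were in the same class in Weeks 3, 12 and 18 only. In Weeks 6 and 15 the HF20 array was bright and the LFC array dim, and in Week 9 the reverse held. HFC and HF75 were bright in Week 3 only and dim on the other 5 arrays, and HF5 was dim on all 6. HFC matched LFC in Weeks 3, 6, 15 and 18 and matched HF20 in Weeks 3, 9 and 18, so values of a comparison over its own weeks of matched brightness are given beside those over 6 weeks. Each of the 12 arrays lay on a slide of its own, and both arrays of a week were scanned on the same day in 4 of 6 weeks.

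The tissue label was checked against marker genes. Of 9 brown fat markers 7 were well above background on all 12 arrays, among them Ucp1, Cidea, Prdm16, Zic1 and Ebf2, and Dio2 and Elovl3 were above it on 11. Genes of skeletal muscle, blood and vessels were also present. Acta1 and Tnnt3 of muscle and Hba-a1 and Hbb-b1 of red cells were above background on all 12 arrays, while of the white fat markers Retn and Nnmt were above it on all 12, Agt on 11, Lep on 8, Hoxc8 on 2 and Hoxc9 on 1.

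No gene passed the test in HF20 against LFC. Of 20724 genes tested with limma, paired by week, 0 had an adjusted p under 0.05 (0% of the genes tested), and the smallest adjusted p was 0.874. An unadjusted p under 0.05 was reached by 850 genes (4.10%), 321 of them higher (1.55%) and 529 lower (2.55%) in HF20. The median change over all genes was -0.09 on the log2 scale, with quartiles of -0.41 and 0.26 and a median standard error of 0.40. In single weeks, between 16.0% (Week 12) and 55.2% (Week 6) of genes differed at least 2-fold. That share was 18.7% in Week 3, 16.0% in Week 12 and 21.9% in Week 18, where both arrays were in the same brightness class, against 55.2%, 45.9% and 54.1% in Weeks 6, 9 and 15, where they were not. The correlation of the HF20 and LFC arrays across genes was 0.96 to 0.98 in the first set of weeks and 0.85 to 0.89 in the second. Genes are not independent replicates, so these values describe single pairs of arrays.

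A few genes kept 1 direction throughout. In all 6 weeks 204 genes (0.984%) were higher and 484 genes (2.34%) were lower in HF20. At least a 2-fold difference in every week was seen for 4 higher genes (0.0193%), which were Nnat, Nnmt, Cyp2b10 and Cyp2b13, and for 4 lower ones (0.0193%), the predicted genes Gm9112, Gm5093, Gm6418 and Gm6745. All 6 HF20 arrays lay above all 6 LFC arrays for 13 genes (0.0627%) and below them for 24 genes (0.116%). These counts describe the arrays, and none of the genes passed the test.

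Among the genes with the largest differences were 3 cytochrome P450 genes of the Cyp2b family, which lie close together on chromosome 7. Their enzymes oxidise drugs, steroids and other foreign compounds, and in liver Cyp2b10 is the textbook target of the xenobiotic receptor CAR (Nr1i3). The promoter windows of the 3 genes are shown because the 3 genes were higher in HF20 together. Each window holds 300 bases around the annotated start, most of them before it, on the plus strand of assembly GRCm38.p6 as given by RefSeq, and lies at chr7:25897408-25897707 for Cyp2b10, at chr7:26061245-26061544 for Cyp2b13 and at chr7:26173159-26173458 for Cyp2b9. Capitals mark the bases of Cyp2b10 that have no identical partner in Cyp2b9, and the bases that differ between Cyp2b9 and Cyp2b13.
Cyp2b10: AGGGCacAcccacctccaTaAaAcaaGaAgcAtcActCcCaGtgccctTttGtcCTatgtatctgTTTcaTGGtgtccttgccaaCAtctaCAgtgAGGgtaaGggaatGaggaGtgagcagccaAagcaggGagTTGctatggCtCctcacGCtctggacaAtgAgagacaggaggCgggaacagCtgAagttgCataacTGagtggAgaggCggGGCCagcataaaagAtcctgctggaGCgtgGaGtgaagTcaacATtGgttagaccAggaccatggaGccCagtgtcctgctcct
Cyp2b13: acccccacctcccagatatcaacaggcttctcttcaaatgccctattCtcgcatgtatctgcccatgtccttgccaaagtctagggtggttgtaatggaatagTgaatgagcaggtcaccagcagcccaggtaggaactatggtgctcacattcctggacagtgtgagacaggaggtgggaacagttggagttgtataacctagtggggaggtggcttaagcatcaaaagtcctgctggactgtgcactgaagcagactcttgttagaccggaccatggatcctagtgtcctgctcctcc
Cyp2b9: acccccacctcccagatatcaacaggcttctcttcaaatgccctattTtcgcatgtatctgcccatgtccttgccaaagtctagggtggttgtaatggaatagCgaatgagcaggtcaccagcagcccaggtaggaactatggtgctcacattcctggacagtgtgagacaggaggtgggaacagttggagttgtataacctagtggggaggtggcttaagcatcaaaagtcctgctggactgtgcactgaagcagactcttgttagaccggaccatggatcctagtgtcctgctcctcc
The windows of Cyp2b9 and Cyp2b13 were identical at 298 of 300 bases and differed by T48C and C104T, counted from the first base of the window with Cyp2b9 first. Cyp2b10 shared 229 of 286 aligned bases (80.1%) with either of them.

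Cyp2b13 ranged from -7.89 over a median of -6.25 to -1.46 in LFC and from -4.80 over -1.86 to 0.83 in HF20. Both groups were highest in Week 12, and 2 of 6 HF20 arrays lay above every LFC array, while within every week the HF20 array was the higher one. The mean difference was 3.51 ± 0.62 (SE, n = 6 weeks), or 11.4-fold, with an adjusted p of 0.874 by limma. Cyp2b9 differed by 3.74 ± 0.90 and Cyp2b10 by 3.54 ± 0.45, also in 6 of 6 weeks and with the same adjusted p. Cyp2b10 had the smallest unadjusted p of all genes, 6.88e-05 by limma, and was picked out after its values were seen, since it was above background on too few arrays for the naming rule. Signals were low in LFC, where Cyp2b10 was well above background on 1 of 6 arrays, Cyp2b13 on 2 and Cyp2b9 on 3, against 4, 5 and 5 arrays in HF20. With every signal raised to the lowest one above background on its array, the differences were 2.43 for Cyp2b10, 2.50 for Cyp2b13 and 3.04 for Cyp2b9. Over Weeks 3, 12 and 18 alone, where brightness matched, they were 2.53, 2.46 and 2.61.

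A second probe for each gene gave 2.68 ± 0.48 for Cyp2b10 and 2.28 ± 0.42 for Cyp2b9, both higher in 6 of 6 weeks. The second probe of Cyp2b13 gave -0.54 ± 0.59 and was above background on 2 LFC arrays and on 0 HF20 arrays, so the 2 probes of this gene disagree. A further gene of the family, Cyp2b19, was above background on all 12 arrays and stood at -0.64 ± 0.71, lower in 4 of 6 weeks. Beside HFC, the 3 genes were 2.0 ± 0.75 (Cyp2b10), 2.38 ± 0.87 (Cyp2b13) and 2.19 ± 1.12 (Cyp2b9) higher in HF20, with adjusted p from 0.262 to 0.274 by limma, but over their weeks of matched brightness the mean differences between HF20 and HFC were 0.30, 0.22 and -0.51. With the normexp background correction the 3 differences from LFC were 0.40 (Cyp2b10), 0.65 (Cyp2b13) and 1.1 (Cyp2b9). Against LFC, Cyp2b10 stood at 1.55 in HFC, 2.53 in HF5, 3.54 in HF20 and 1.19 in HF75. Genes that xenobiotic receptors are known to act on were examined as a list that was added after the data were seen. Of 11 tested, 5 had a positive and 6 a negative change, with a median of -0.15 beside -0.09 for all genes. Cyp3a11 stood at 0.97 ± 0.43 and the receptor gene Nr1i3 itself at -1.61 ± 1.27.

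**Figure D1:**
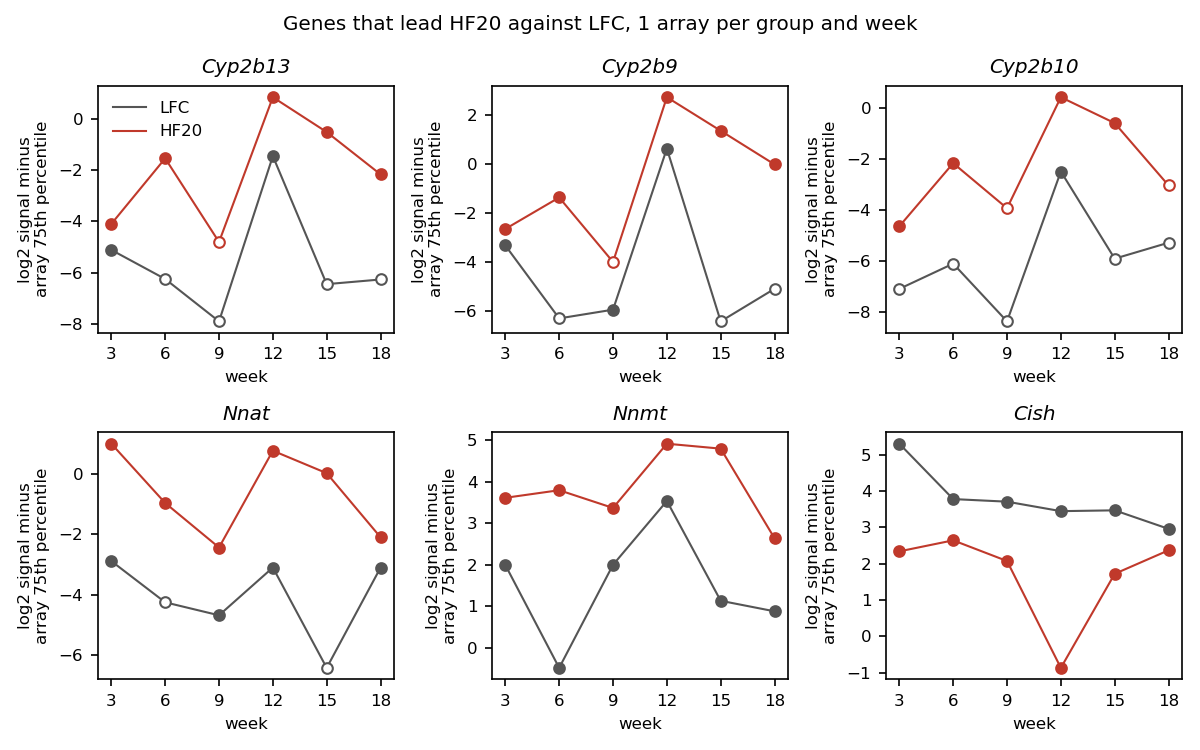
Log2 signal minus the 75th percentile of the array (y axis) by week (x axis) in LFC (grey) and HF20 (red), 1 array per point, for 6 genes. Filled points were well above background and open points were not. HF20 lies above LFC in every week for the 3 Cyp2b genes, Nnat and Nnmt, and below it in every week for Cish.

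Nnat encodes neuronatin, a small membrane protein from an imprinted gene that is expressed in brain and fat. It ranged from -6.42 over a median of -3.68 to -2.89 in LFC and from -2.44 over -0.47 to 1.0 in HF20, so the groups did not overlap. The difference was 3.45 ± 0.64 (11.0-fold, higher in 6 of 6 weeks, adjusted p = 0.874 by limma), 2.92 over the 3 weeks of matched brightness and 1.44 with the normexp background correction. In HFC the difference from LFC was 2.46 ± 0.33, and it was 1.56 in HF5 and 0.61 in HF75. HF20 and HFC differed by 1.0 ± 0.60 (adjusted p = 0.324 by limma), and for Nnat this was -0.22 over their weeks of matched brightness. Of the 10 imprinted growth genes tested, 4 had a positive and 6 a negative change with a median of -0.31, and Mest, which is known to follow fat cell size, stood at -0.51 ± 0.35. Over the weeks of matched brightness the median of the list was 0.10, with 7 positive and 3 negative.

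Nnmt, the enzyme that methylates nicotinamide and is abundant in white fat, ranged from -0.48 over 1.57 to 3.54 in LFC and from 2.64 over 3.71 to 4.92 in HF20. Of the 6 HF20 arrays 4 lay above every LFC array. The difference was 2.34 ± 0.48 (5.08-fold), 0.81 ± 0.45 in HFC, and 1.54 ± 0.52 between HF20 and HFC. Over weeks of matched brightness Nnmt stood at 1.59 in HF20 against LFC, 1.48 in HFC against LFC and 0.32 between HF20 and HFC. Phgdh, the first enzyme of serine synthesis, differed by 2.01 ± 0.41, and all 3 of its probes gave between 1.96 and 2.16. S100b, a calcium-binding protein that brown fat cells secrete to guide their nerves, ranged from 1.64 over 3.60 to 5.38 in LFC and from 4.54 over 5.83 to 6.39 in HF20, a difference of 2.05 ± 0.40.

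The other leading higher genes had smaller differences or dimmer signals. Ifi27l2a, an interferon-inducible gene, was 1.72 ± 0.31 higher, with its probe saturated on 4 of 12 arrays and a second probe at 2.41. Cenpb, the centromere protein B gene, did not overlap between groups (-1.46 to 0.07 in LFC, 0.68 to 2.03 in HF20) and differed by 1.5 ± 0.28. Dermatopontin (Dpt), an extracellular matrix protein, differed by 1.57 ± 0.36. The secreted phospholipase Pla2g2d stood 1.81 ± 0.36 higher and the GABA transporter Slc6a13 2.13 ± 0.45, both above background on 3 LFC arrays, and the phosphatase Ppef2 1.03 ± 0.22. With the normexp background correction the differences were 0.11 for Pla2g2d and 0.65 for Slc6a13. Ppef2, above background on 3 LFC and 4 HF20 arrays, changed direction under it, to -0.21. The adjusted p of each of these genes was 0.874 by limma.

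**Figure D2:**
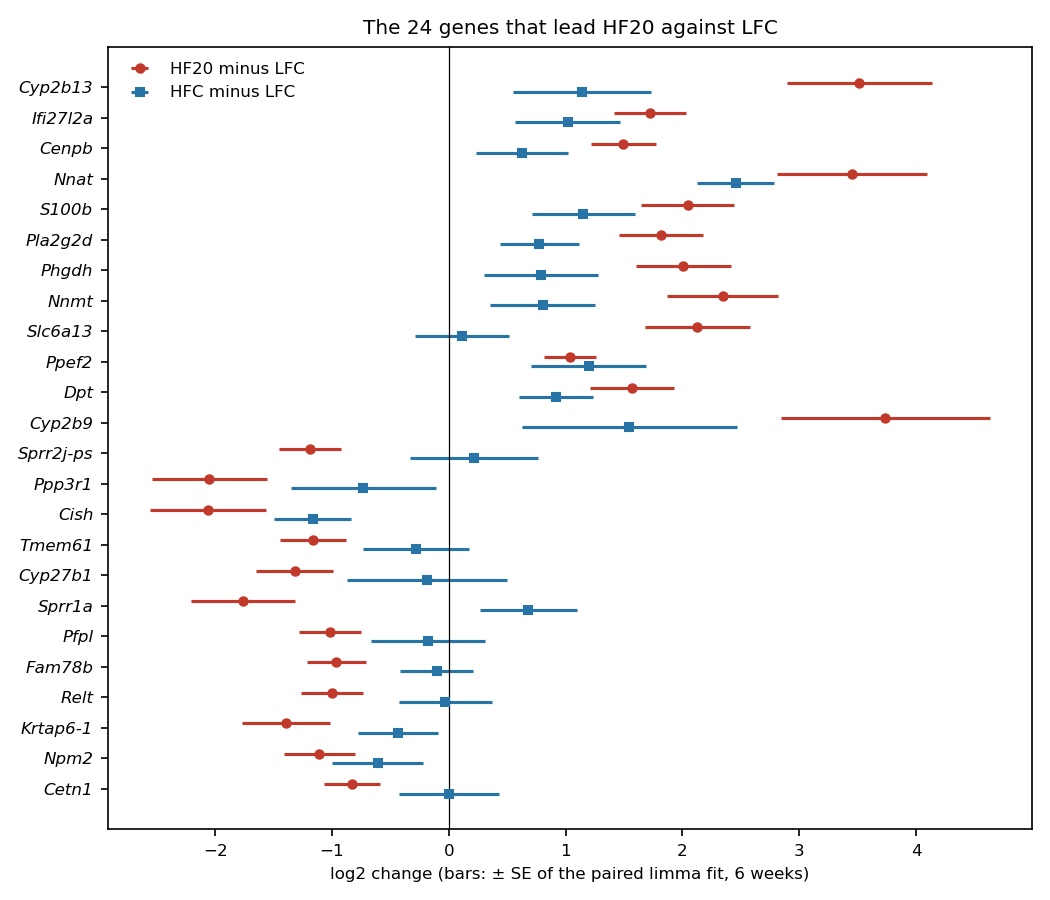
Log2 change from LFC (x axis) of the 24 genes that lead HF20 against LFC (y axis), in HF20 (red circles) and in HFC (blue squares), each with the standard error of the limma fit paired by week over 6 weeks. HF20 values run from 1.03 to 3.74 for the higher genes and from -2.06 to -0.83 for the lower ones. Both comparisons use the same 6 LFC arrays.

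Cish had the largest difference of the 12 named lower genes. Outside these 12, larger ones were seen for predicted genes and for annotated ones such as Lepr (-2.94) and Lifr (-2.25). Cish encodes an inhibitor of cytokine signalling that growth hormone, prolactin and interleukins induce through STAT5. The signal of Cish was 2.96 to 5.30 with a median of 3.59 in LFC and -0.86 to 2.64 with a median of 2.21 in HF20, and the groups did not overlap. The difference was -2.06 ± 0.50 (4.17-fold lower, adjusted p = 0.874 by limma), with -4.31 in Week 12 and -0.59 in Week 18 as its extremes. HFC stood at -1.17 ± 0.33, HF5 at -1.06 and HF75 at -1.52, so Cish was lower than in LFC on average in all 4 groups on the high fat diet, which share the LFC arrays.

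Most of the remaining lower genes were dim. Ppp3r1, the regulatory subunit of calcineurin, differed by -2.05 ± 0.49 by its brightest probe, while 2 further probes gave -0.31 and -0.61. Cyp27b1, which makes the active form of vitamin D, differed by -1.32 ± 0.33, and Sprr1a, a small proline-rich protein of keratinising cells, by -1.76 ± 0.45 with 2 of 6 HF20 arrays above background. Npm2, a chaperone of egg chromatin, did not overlap between groups and differed by -1.11 ± 0.31. Sprr2j-ps, Tmem61, Pfpl, Fam78b, Relt, Krtap6-1 and Cetn1 completed the 12, with differences between -1.40 and -0.83. Raised to background, the difference of Npm2 was -0.34 and that of Relt -0.25. Over the 3 weeks of matched brightness, 30 genes (0.145%) were at least 2-fold higher in every week and 119 (0.574%) at least 2-fold lower.

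Genes of heat production and of the mitochondria had higher mean values in HF20, and their levels followed the brightness of the 12 arrays. Of 23 brown thermogenic genes tested, 19 had a positive change, 11 were higher in at least 5 of 6 weeks (8.02% of all genes were) and 0 passed the test, with a median of 1.14 beside -0.09 for all genes. By week, the mean difference of the list was -0.96 in Week 3, 2.27 in Week 6, -1.0 in Week 9, 1.13 in Week 12, 3.22 in Week 15 and 1.14 in Week 18. The list was high in Weeks 6 and 15, where the HF20 array was the brighter one, and lowest in Week 9, where it was the dimmer one. On the 12 arrays of LFC and HF20 its mean level was 1.83 to 3.21 where they were bright and -0.27 to 1.71 where they were dim. Other groups did not keep this order. The bright HF75 array of Week 3 stood at -2.89, and the dim HF5 array of Week 18 stood at 2.07. The part of array brightness in these differences was not tested. With the brightness class as a covariate the median was 0.56, over the weeks of matched brightness 0.46 (17 of 23 positive), without Week 15 it was 0.50 and without Week 6 it was 0.63. In HFC against LFC the median of the list was -0.25 over 6 weeks and 0.63 over their weeks of matched brightness (19 of 23 positive). Between HF20 and HFC it was -0.17 over their weeks of matched brightness (19 of 23 negative).

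Ucp1 ranged from 3.38 over 5.67 to 6.70 in LFC and from 6.28 over 6.58 to 8.32 in HF20, and was higher in HF20 in 5 of 6 weeks. Its difference was 1.44 ± 0.48, against 1.45 ± 0.47 in HFC and -0.01 ± 0.29 between HF20 and HFC. Its probe was saturated on 6 of 12 arrays, all of them bright, where the scanner gives only a lower limit. Dio2, the deiodinase that activates thyroid hormone, was not saturated on any array, and ranged from -4.20 over -2.65 to 0.77 in LFC and from -1.78 over 0.77 to 3.64 in HF20, with a difference of 3.04 ± 1.09 and of 3.50 over the weeks of matched brightness. Gyk, glycerol kinase, differed by 2.35 ± 0.71, and the coactivator Ppargc1a by 1.72 ± 0.74. The elongase Elovl3 went the other way on average, at -1.09 ± 1.53, and the regulator Prdm16 stood at -0.42 ± 0.37.

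Enzymes that oxidise fat had positive mean changes without exception among those tested. All 22 genes of fatty acid oxidation had a positive change (median 1.27, 12 higher in at least 5 of 6 weeks), as did all 16 of the tricarboxylic acid cycle (median 1.03, 9 so) and all 22 of mitochondrial respiration (median 0.94, 11 so). None of them passed the test. Members of these lists were often saturated, 13 of 22, 11 of 16 and 19 of 22 on at least 1 array. In Week 18, when both arrays were dim, the mean differences were 1.42, 1.36 and 1.27, and over the unsaturated members alone 1.08, 0.78 and 1.14. In Week 3, when both arrays were bright, they were -0.16, -0.23 and -0.37. In Week 12, also bright on both sides, they were 0.57, 0.31 and 0.24, and over the 3 weeks of matched brightness the medians were 0.64, 0.45 and 0.38. A saturated signal is only a lower limit. For saturated members the pairs of bright arrays therefore cannot show the size of a difference, and medians that include those weeks share this limit. The same holds for saturated members of the other lists. Beside LFC, the medians in HFC over 6 weeks were 0.09, -0.01 and 0.02, and those in HF75 were -0.97, -1.21 and -0.64, from groups that were dim on 5 of 6 arrays. Within HF75, however, the mean level of fatty acid oxidation was lowest on the bright array of Week 3. It was 0.94 there and 2.32 to 3.06 on the dim arrays. Over the 4 weeks in which HFC matched LFC in brightness its medians were 0.73, 0.47 and 0.41, and between HF20 and HFC they were 0.08, 0.01 and 0.01 over the weeks of matched brightness.

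Single members show the same course. Slc25a20, the carrier that brings acylcarnitine into mitochondria, ranged from -1.53 over 0.71 to 3.61 in LFC and from 1.64 over 3.50 to 3.94 in HF20, with no saturated array and a difference of 2.27 ± 0.84. Idh2, the mitochondrial isocitrate dehydrogenase, differed by 2.07 ± 0.69. The muscle-type carnitine transferase Cpt1b stood at 1.69 ± 1.05 and the pyruvate dehydrogenase kinase Pdk4, which spares glucose when fat is burned, at 1.25 ± 0.60. Among adrenergic and cyclic AMP genes the median was 0.58, or 0.10 over the weeks of matched brightness (10 of 17 positive). The beta-3 receptor Adrb3 stood at 1.14 ± 1.18, the G protein gene Gnas was higher in 6 of 6 weeks by 0.97 ± 0.33, and the inhibitory receptor Adra2a was lower in 6 of 6 weeks by -1.34 ± 0.41, though above background on 3 of 6 HF20 arrays.

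**Figure D3:**
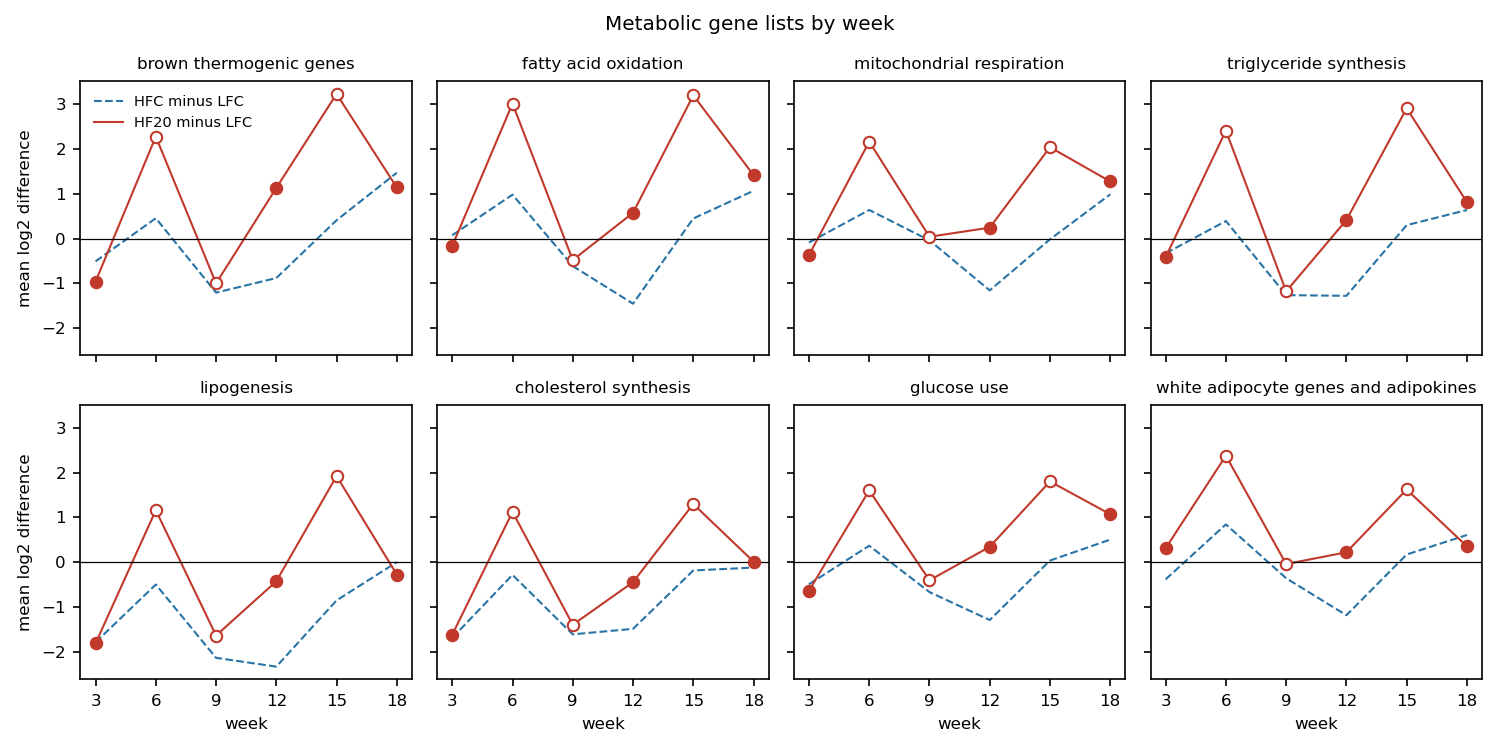
Mean log2 difference from LFC (y axis) by week (x axis) for 8 gene lists, in HF20 (red) and HFC (blue, dashed). Filled red points are weeks in which the HF20 and LFC arrays were in the same brightness class, open points weeks in which they were not. In each panel the highest red points are those of Weeks 6 and 15, and in Week 3 the lipogenesis and cholesterol lists lie at -1.81 and -1.61.

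Genes of fatty acid synthesis had values that turned on which weeks were compared, with no gene past the test in any comparison. The 19 lipogenesis genes had a median of -0.21 in HF20 against LFC over 6 weeks, 8 positive and 11 negative, and one of -0.76 over the weeks of matched brightness, 2 positive and 17 negative. Against the same LFC arrays the median in HFC was -1.38 over 6 weeks (17 of 19 negative) and -0.71 over its own weeks of matched brightness (16 of 19 negative). HF20 exceeded HFC by a median of 1.08 over 6 weeks, with 8 genes at an unadjusted p under 0.05 by limma (18.9% of all genes were), and by 0.05 over the weeks of matched brightness. Medians over 6 weeks were -1.79 in HF5, dim on every array, and -1.94 in HF75, dim on 5. The lowest HF75 level, 0.34, was on its bright array of Week 3, beside 0.37 to 1.35 on its dim arrays. The mean level of the list was 2.64 in HF20 and 2.67 in HFC in Week 3, 2.17 and 1.67 in Week 9, and 1.33 and 1.60 in Week 18. By week, the list stood at -1.81, 1.16, -1.63, -0.42, 1.92 and -0.27 in Weeks 3 to 18, so the small median over 6 weeks joins weeks of opposite sign. Leaving out 1 week at a time moved it from -0.64 (without Week 15) to 0.27 (without Week 3), also above 0 without Week 9 (0.21).

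Elovl6, which lengthens palmitate to stearate, stood at -0.21 ± 1.07 in HF20 against -2.76 ± 0.68 in HFC, and HF20 lay 2.55 ± 0.93 above HFC (adjusted p = 0.262 by limma). Its level on the 12 arrays was 3.67 to 6.65 where they were bright and 0.54 to 1.96 where they were dim, and over weeks of matched brightness Elovl6 stood at -1.32 in HF20 against LFC, -1.59 in HFC against LFC and 0.13 between HF20 and HFC. Scd1, the stearoyl-CoA desaturase, was saturated on 5 of 12 arrays and stood at -0.32 ± 0.58 against -1.93 ± 0.26, and malic enzyme Me1 at -0.46 ± 0.75 against -2.08 ± 0.51. Acaca, acetyl-CoA carboxylase, stood at 0.06 ± 1.07 against -2.26 ± 0.71. ATP citrate lyase (Acly) stood at -0.73 ± 0.63 and was lower in 5 of 6 weeks, and the SREBP-1 gene Srebf1 stood at 0.36 ± 0.77. Over weeks of matched brightness the differences between HF20 and HFC were 0.05 for Scd1, 0.00 for Me1 and -0.02 for Acaca. Within weeks the spread was wide. Elovl6 ran from -4.08 in Week 9 to 4.23 in Week 15, and Scd1 from -2.46 in Week 18 to 1.59 in Week 6. Fasn, the fatty acid synthase itself, stood at 0.15 ± 0.46 and Thrsp at 0.62 ± 0.32, with both probes saturated on 7 of 12 arrays.

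The picture was similar for cholesterol synthesis. The 25 genes had a median of -0.22 (9 positive, 16 negative, 0 passed) against -1.0 in HFC (23 of 25 negative), and none of them was saturated. Over weeks of matched brightness the medians were -0.72 in HF20 (23 of 25 negative), -0.67 in HFC (22 of 25 negative) and 0.14 between HF20 and HFC. Without Week 3 the median was 0.14, and without Week 9 it was 0.08. Sqle, squalene epoxidase, ranged from -2.15 over -0.42 to 1.78 in LFC and from -2.95 over -1.60 to -0.51 in HF20, a difference of -1.33 ± 0.59, beside -1.83 ± 0.52 in HFC. Cyp51, the lanosterol demethylase, was above background on 4 arrays of each group and stood at -0.30 ± 0.58 against -1.74 ± 0.43. In Week 3 the list stood at -1.61 in HF20 and -1.68 in HFC, and in Week 18 at 0.02 and -0.12.

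Golga7b, a partner of protein palmitoylation enzymes, had the smallest p among the named genes in HFC against LFC. It ranged from -2.98 over -2.10 to -0.50 in LFC and from -5.59 over -3.77 to -1.79 in HF20, and was lower in HF20 in 5 of 6 weeks, the exception being Week 15. The difference was -1.61 ± 0.53 in HF20, -3.46 ± 0.46 in HFC, -3.25 in HF5 and -3.05 in HF75. HF20 lay 1.85 ± 0.60 above HFC (adjusted p = 0.262 by limma), and Golga7b was 1.31 above it over their weeks of matched brightness, with all 3 weeks positive. Chosen after their values were seen, the named genes that lead HFC against LFC were followed into HF20, 8 in each direction. Of the 8 higher ones 3 had a positive mean in HF20, Nnat, Dnmbp (1.06 ± 0.36) and Abca6 (0.85 ± 0.38), each higher in at least 5 of 6 weeks, and 5 had a negative one, among them Tnp2 (1.97 in HFC, -0.15 in HF20), Adamts17 (1.40 and -0.14) and Sprr2g (1.76 and -0.65). All 8 lower ones had a negative mean in HF20 too, but only Golga7b and Unc119 (-0.64) were lower in at least 5 of 6 weeks. The LFC arrays enter both values.

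**Figure D4:**
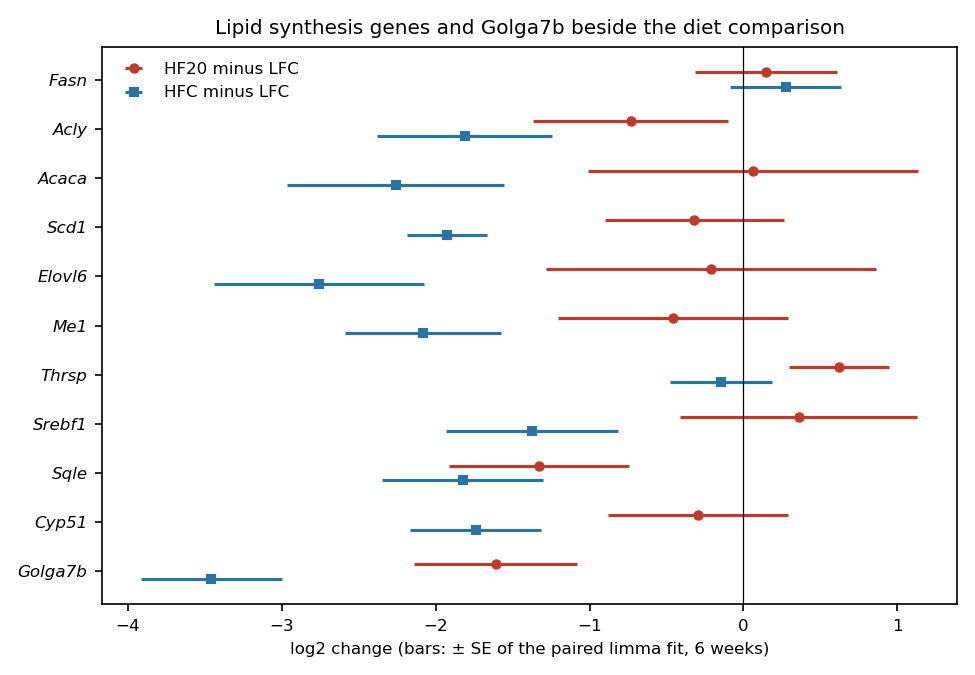
Log2 change from LFC (x axis) of 10 lipid synthesis genes and Golga7b (y axis) in HF20 (red circles) and HFC (blue squares), with the standard error of the limma fit paired by week over 6 weeks. For Elovl6, Scd1, Me1 and Acaca the HFC values lie between -2.76 and -1.93 and the HF20 values between -0.46 and 0.06, over weeks in which HFC was dim on 5 arrays and HF20 on 2.

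Triglyceride synthesis and droplet genes stood with the mitochondrial lists. All 12 triglyceride genes had a positive change (median 0.84, against -0.69 in HFC), and 0 passed. Over weeks of matched brightness the medians were 0.34 in HF20 and 0.15 in HFC. Pck1, which supplies glycerol for triglyceride, differed by 1.30 ± 0.45, and the acyltransferase Dgat2 by 1.24 ± 0.58, both saturated on 7 of 12 arrays. The droplet protein Plin5, which tethers droplets to mitochondria, was saturated on 2 arrays and differed by 2.43 ± 0.92. Glucose use had a median of 0.69 (18 of 20 positive), or 0.34 over the weeks of matched brightness, and lipid uptake one of 0.24. Leptin (Lep), the fat-store hormone, ranged from -6.24 over -2.94 to 0.36 in LFC and from -4.06 over 0.00 to 1.83 in HF20, a difference of 2.30 ± 1.0, with 3 LFC and 5 HF20 arrays above background. Adiponectin (Adipoq), saturated on 7 arrays, differed by 1.31 ± 0.93, and the white adipocyte list of 13 genes had a median of 0.87, or 0.30 over the weeks of matched brightness, with Nnmt and Lep highest.

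Lists of other cell types varied widely between arrays. The mean of the 23 skeletal muscle genes ran from -4.00 to 2.54 in LFC and from -4.12 to 4.02 in HF20, and the weekly difference from -2.65 in Week 12 to 5.50 in Week 15. It was 0.07 in Week 18. Myoglobin (Mb), which also serves oxidative fibres, differed by 2.13 ± 0.90. Since these are bulk samples, more cells of a type and more RNA per cell cannot be told apart. The 11 endothelial genes followed brightness closely, at 1.27 to 1.90 on the 7 bright arrays and 4.29 to 5.08 on the 5 dim ones, with a median change of -0.86 (0.69 in HFC), and -0.13 in HF20 and -0.26 in HFC over weeks of matched brightness. Erythroid genes ran the same way, at -2.19 to -1.22 on bright and 0.06 to 2.75 on dim arrays. Lymphocyte genes had a median of 0.69 (13 of 18 positive, against 18 of 18 and 1.16 in HFC), macrophage genes 0.18 and interferon response genes -0.18 (0.63 in HFC). Over weeks of matched brightness the lymphocyte medians were 0.56 and 0.66 in HF20 and HFC, and the interferon medians 0.42 and 0.07. In HF20 the positive values came from Week 3. The mean differences of the lymphocyte list were 1.85, -0.49 and -0.26 in Weeks 3, 12 and 18. Those of the interferon list were 1.69, -0.49 and -0.18. The macrophage medians over those weeks were 0.66 in HF20 (21 of 22 positive) and 0.29 in HFC (17 of 22 positive). In HF20 the mean difference of the macrophage list was 1.73 in Week 3, 0.04 in Week 12 and 0.15 in Week 18. With the skeletal muscle mean as a covariate 0 genes passed.

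**Figure D5:**
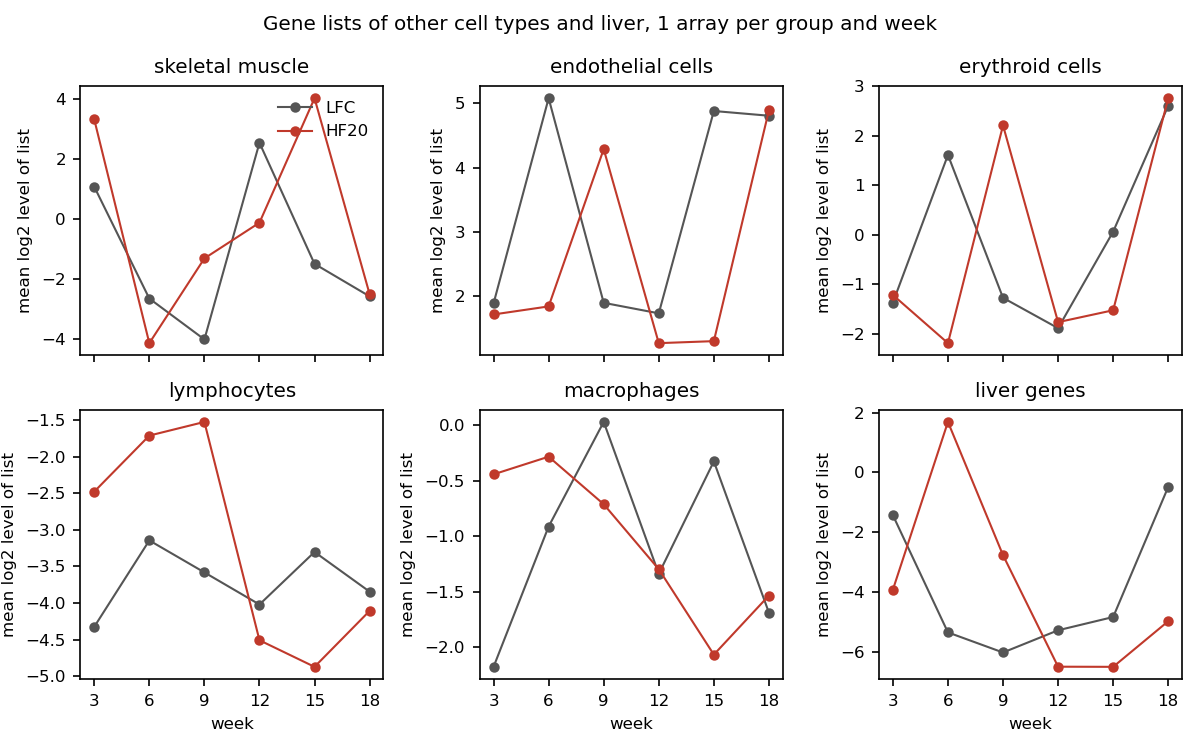
Mean log2 level of the members (y axis) by week (x axis) in LFC (grey) and HF20 (red) for 5 lists of other cell types and for liver genes, 1 array per point. Endothelial genes lie at 1.27 to 1.90 on bright and at 4.29 to 5.08 on dim arrays, and skeletal muscle spans -4.12 to 4.02.

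The remaining lists had medians between -0.46 and 0.44 over 6 weeks. Collagen and matrix genes had a median of -0.02, cell cycle genes 0.03 and the stress genes of the endoplasmic reticulum -0.17. Circadian genes stood at -0.19, heat shock genes at -0.46 and genes of oxidative defence at 0.44. Over the weeks of matched brightness these medians were, in the same order, 0.34 (20 of 22 positive), 0.31 (16 of 23), 0.13 (11 of 17), 0.02 (10 of 18), 0.19 (9 of 11) and 0.20 (15 of 20). The mean differences of the collagen list were 0.61, 0.25 and -0.01 in Weeks 3, 12 and 18. Those of the cell cycle list were 0.79, 0.22 and -0.03. Glutathione reductase (Gsr) was lower in 6 of 6 weeks by a mean of -0.51 ± 0.24, and the chaperone Hsp90b1 by -0.55 ± 0.27, neither past the test. The mitochondrial superoxide dismutase Sod2 stood at 1.01 ± 0.37. No trend with week in the HF20 minus LFC difference was found for any gene, with 0 of 20724 past the threshold, 497 with an unadjusted p under 0.05 (2.40%) and a smallest adjusted p of 1 by limma. In the direct comparison of HF20 with HFC 0 genes passed either, with 3927 (18.9%) at an unadjusted p under 0.05 and a smallest adjusted p of 0.262 by limma. In HFC against LFC 0 passed as well, with 2136 (10.3%) and 0.408. Over weeks of matched brightness 1151 of 20724 genes had an unadjusted p under 0.05 in HF20 against LFC by limma. In HF20 against HFC 228 of 20724 had one and in HFC against LFC 748 of 20724, and 0 passed in any of the comparisons.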

How the data were processed

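Agilent one-colour arrays measured brown fat RNA. The authors deposited scanner files with background-subtracted intensity per spot, made with Agilent Feature Extraction (version 9.1 per the labels), and a table of log2 values that the authors deposited relative to LFC, which served only as an alternative. Here log2 of the processed signal minus the 75th percentile of each array was used, control spots and outlier flags were left out, and replicate spots of a probe were averaged (43803 spots, 40628 probes). The brightest probe on average stood for a gene (29411 names), and a gene was tested if its probe was called above background on 6 or more of the 30 arrays (20724 genes). HF20 and LFC were compared with limma 3.58.1 in R 4.3.3, paired by week, two-sided, at a Benjamini-Hochberg adjusted p of 0.05, and the script was tested on simulated data. The number of arrays limits the precision.

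The pairing comes from the week labels. Deviations of same-week arrays from their group means correlated at 0.28, -0.03, -0.55, 0.67, -0.49 and 0.75 in Weeks 3 to 18. Brightness classes were set at a 75th percentile of 600. Named genes were the 12 in each direction with the smallest p among genes of 1 direction in all 6 weeks whose probe was called above background on 6 or more of their 12 arrays and that had a RefSeq symbol, leaving out predicted genes (Gm, LOC, Rik) and olfactory receptors, plus genes always named and the leading members of each list. The members and lists were chosen with earlier results of these data known. Values of lists and single genes in HFC over weeks of matched brightness were added after seeing the data. Alternatives are described in the closing section. Some genes of these lists are not reported here.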

Additional observations from a re-analysis of the deposited data

Results flagged for a closer look

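Of 146 gene levels, each tested in a group of 6 arrays, 9 had 1 array standing apart, with a gap to the nearest array, divided by the whole range of the group, that was above the critical value of Dixon's test for 6 arrays, and chance gives about 1 in 20 such cases. In LFC the share was 0.7 for Cenpb (Week 15 at -1.46, the others from -0.39 to 0.07), 0.627 for Sprr2j-ps (Week 18 at 0.47, the others from -1.70 to -0.89), 0.65 for Cish (Week 3 at 5.30, the others from 2.96 to 3.78) and 0.786 for Npm2 (Week 6 at -2.09, the others from -4.24 to -3.78). In HF20 it was 0.739 for Ifi27l2a (Week 18 at 5.57, the others from 6.20 to 6.43), 0.738 for Cish (Week 12 at -0.86, the others from 1.72 to 2.64) and 0.719 for Mest (Week 12 at -3.49, the others from -1.42 to -0.61). On the dim HF20 array of Week 9, Ucp1 (0.77) stood at 8.32 and Fasn (0.765) at 8.50, with the other arrays from 6.28 to 6.75 and from 6.18 to 6.72. The probes of both genes were saturated on bright arrays.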

How the results depend on the processing

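No gene passed in HF20 against LFC under any alternative with adjusted p-values. These were quantile normalization, normexp, raised signals, the deposited table, filters, every probe, array weights, all 30 arrays, slide, brightness, muscle and, chosen after seeing the data, weeks scanned on 1 day. The unpaired fit without the replicate block gave 0 as well, and leaving out 1 week gave 0 to 0. Unadjusted counts ran from 56 (normexp) to 3171 (without Week 9), beside 850. The methods' t-test without adjustment gave 789 genes in HF20 against LFC, 975 in HFC against LFC and 3175 in HF20 against HFC. With all 30 arrays 3 genes passed in HFC against LFC, and with the slide as a random block 1 (Golga7b), as did 1 in HF20 against HFC (Olfr945). Leaving out 1 week gave 0 to 0 in both, and also for the trend, which stayed at 0 under its 11 alternatives. Of 541 values of 25 leading genes, 539 kept their direction, 0 passed, and the smallest adjusted p by limma was 0.165. The exceptions were Ppef2 with normexp (-0.21) and the second probe of Cyp2b13 (-0.54), and the cause was not tested. All 25 genes had 1 direction in every week, which was a condition for naming all of them but Cyp2b10. Fits that only leave out weeks, and the unpaired fit, could therefore not reverse them. Those values are part of the 539 and do not test the direction. The Cyp2b median was 0.52 with normexp and -0.64 with genes above background on all arrays, which keeps 1 member, Cyp2b19. In the deposited table the Week 15 columns followed the spot order of the arrays, not the probe names (correlation 0.0017 by name and 0.999 by order for HF20), so Week 15 was left out or read in spot order. Scan day as a covariate was not run. Brightness limits what the arrays can show, since as few as 46.0% of probes were well above background on an array.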

Other observations

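Genes expressed in liver were examined as a list added after the data were seen. The mean level of the 13 genes tested was -1.43, -5.34, -6.01, -5.27, -4.82 and -0.48 in LFC and -3.91, 1.69, -2.76, -6.48, -6.49 and -4.96 in HF20 at Weeks 3, 6, 9, 12, 15 and 18. It was highest on the HF20 array of Week 6 and on the LFC array of Week 18. The median change of the list over 6 weeks was -0.06, and 0 of its genes passed the test by limma, with 0 also at an unadjusted p under 0.05. Over the weeks of matched brightness the median was -2.80 in HF20 against LFC, with 13 of 13 genes negative. It was -1.51 in HFC against LFC (11 of 13 negative) and 0.05 between HF20 and HFC.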
